A study of Mus musculus with 12 samples.

Results

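The genes described here are 8 axon guidance receptors and ligands of the mouse cortex, namely the roundabout receptors Robo1 and Robo2, the Eph receptors Epha3, Epha6 and Ephb3, the ephrin ligand Efnb2, the semaphorin Sema5b and the Hedgehog co-receptor Boc. They were chosen by gene symbol, and all 8 were found among the 35129 gene entries of the table. The question the study put to its samples was how chronic nicotine changes the transcripts of cortical interneurons and pyramidal neurons. Fluorescent cells were picked by hand from dissociated cortex of male mice of 5 to 7 weeks and 20 g, with 10 cells to a lysate, and their cDNA was amplified and sequenced. Sst-neurons came from GIN mice, an FVB line in which a GadGFP transgene labels a group of somatostatin interneurons, and Thy1-neurons came from thy1-YFP-H mice, a B6 line in which a Thy1-YFP transgene labels layer V pyramidal neurons. Each mouse carried a subcutaneous mini pump for 14 days that delivered saline (groups Sst and Thy1) or nicotine hydrogen tartrate at 48 mg/kg/d (groups Sst+Nic and Thy1+Nic). The study took 3 mice to a group and numbered 3 samples in each, but how lysates were divided among libraries is not given in the sources used here, so p-values measure the spread between these samples, which may be in part technical. In all 10 libraries were used, with 3 from saline and 2 from nicotine mice for the Sst-neurons and 2 from saline and 3 from nicotine mice for the Thy1-neurons. The libraries numbered 1 of Sst+Nic and of Thy1 were not used here. Because every Sst-neuron came from the FVB line and every Thy1-neuron from the B6 line, cell type and mouse line cannot be told apart.

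Axon guidance molecules steer growing axons during development and stay expressed in many adult neurons, where they take part in the upkeep and plasticity of synapses. Roundabout receptors are transmembrane proteins of the immunoglobulin superfamily that bind secreted Slit proteins, and their activation commonly repels the growth cone. Eph receptors are receptor tyrosine kinases activated by membrane-bound ephrins on a neighbouring cell, and ephrin-B ligands, which span the membrane, can also signal into the cell that carries them. EphA receptors mostly bind ephrin-A ligands and EphB receptors mostly bind ephrin-B ligands. Semaphorins signal largely through plexin receptors, and Sema5b belongs to the transmembrane class with thrombospondin repeats. Boc is a cell-surface receptor of the immunoglobulin superfamily that binds Sonic hedgehog together with Patched.

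The authors deposited the number of fragments on each gene entry. The totals per library over the entries of the table ranged from 2915738 to 4878326 fragments (median 3673832), and a level in CPM is the number of counts per 1000000 of these counts in its library. Where a gene had no count, up to 3 counts and thus 0.615 to 1.03 CPM remain possible, and such limits and all Wilson intervals cover counting error only. Most entries of the table held fewer counts than the study's own group values require. This shortfall also enters the totals, and thus every CPM, scaling factor and share of all entries. Genes are therefore named only from 904 entries, called checked. An entry was checked by its position, since only some genes of a stretch were compared, 42 on chromosome 16 and 9 on chromosome 8. Of these, 15 and 7 were within 1% of the group values, which were those of Sst and Thy1+Nic. Most checked entries lie in stretches of chromosomes 7, 8, 16 and 19 that passed. All 8 genes lie in these stretches, 7 of them on chromosome 16 and Efnb2 on chromosome 8. Sst itself, the transcript that defines the interneurons, had between 53779 and 126088 CPM in the 5 Sst-neuron libraries and between 1.15 and 49.2 CPM in 4 of the 5 Thy1-neuron libraries. The exception was Thy1 replicate 3, with 3795 CPM, and some of the results that rest on it, but not all, are also given without it. Of 43 markers in 7 lists of cell types, 5 were in checked entries, and none of these marks pyramidal neurons or astrocytes, so that the label of the Thy1-neurons could not be checked by a marker of its own. Apod, a marker of oligodendrocytes, ranged from 0 to 402 CPM over the libraries, the microglial marker Cd86 from 0 to 50.5 CPM and the endothelial marker Cldn5 from 0 to 35.7 CPM. Chodl, which marks a small class of Sst interneurons, had a single count in a single library.

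Robo1 and Robo2 were detected in every library, and Robo1 was the steadier of both within the Sst group. Robo1 (Entrez 19876, chromosome 16, 72027518 to 73047491 on the plus strand of GRCm38) had 195, 187 and 209.7 CPM in the Sst libraries and 254 and 170.3 CPM in the Sst+Nic libraries. In the Thy1 libraries Robo1 had 141 and 124 CPM, and in the Thy1+Nic libraries it had 61.6, 119.8 and 146 CPM. Every Sst-neuron library was thus above every Thy1-neuron library in CPM, with means of 203 ± 31.6 and 119 ± 33.7 CPM (SD, n = 5 each). Among the 595 checked entries with at least 10 counts in a library, 7.23% were higher in the same way without overlap, and 14.3% did not overlap in either direction. After division by the TMM factors, which rescale each library by its bulk of genes, the ranges of Robo1 met, at 152 to 198 CPM in Sst-neurons and 72.8 to 153 CPM in Thy1-neurons.

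Robo2 (Entrez 268902, chromosome 16, 73891976 to 75447443, minus strand) lies next to Robo1 in a gene of 1555 kb. It had 441.1, 221 and 278 CPM in Sst and 369 and 303 CPM in Sst+Nic. In Thy1 it had 350.0 and 435 CPM, and in Thy1+Nic 225, 197 and 298 CPM. The cell types overlapped over most of their ranges, with means of 322 ± 85.0 CPM in Sst-neurons and 301 ± 96.0 CPM in Thy1-neurons (SD, n = 5 each). The 3 Thy1+Nic libraries were all below both Thy1 libraries.

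Of the 3 Eph receptors, Epha3 had no count in some libraries and Epha6 was high in a single library. Epha3 (Entrez 13837, chromosome 16, 63543532 to 63864175, minus strand) had 35.1, 17.6 and 33.5 CPM in Sst and 41.5 and 29.9 CPM in Sst+Nic. It had 0 counts in Thy1 replicate 2, which allows up to 0.859 CPM, and 43.7 CPM in Thy1 replicate 3. In Thy1+Nic it had 14.4 and 14.7 CPM in replicates 1 and 2 and 0 counts in replicate 3, which allows up to 0.884 CPM. Epha3 was therefore present in all 5 Sst-neuron libraries and in 3 of the 5 Thy1-neuron libraries, and its highest value of all fell in the Thy1 library that also carried 3795 CPM of Sst. Without that library the Thy1-neuron libraries reached at most 14.7 CPM and the Sst-neuron libraries at least 17.6 CPM, where 8.24% of 595 checked entries were higher in Sst-neurons without overlap. Apod had 0 counts in the same 2 libraries in which Epha3 had none, and 84.3 CPM in Thy1 replicate 3. The part of Sst-positive or Apod-positive material in these Epha3 values was not tested.

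Epha6 (Entrez 13840, chromosome 16, 59641433 to 60610911, minus strand) stood at 131 CPM in the first Sst library, between 120.3 and 143 CPM by a 95% Wilson interval, against 15.0 and 23.2 CPM in Sst replicates 2 and 3. It had 57.6 and 39.8 CPM in Sst+Nic, 31.8 and 7.69 CPM in Thy1, and 10.4, 30.0 and 18.3 CPM in Thy1+Nic. A single library thus set the Sst mean of 56.4 ± 64.7 CPM (SD, n = 3), while the Sst+Nic libraries lay between that library and the rest. Epha6 shares its span with 2 genes on the opposite strand, and whether the counting used strand is not given in the sources used here, so reads from either strand may be included. The same holds for Robo1, with 2 such genes, Robo2, with 6, and Sema5b, with 1.

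Ephb3 (Entrez 13845, chromosome 16, 21204620 to 21223309, plus strand) is the shortest of the genes at 18.7 kb. It had 23.1, 21.9 and 37.5 CPM in Sst, 35.7 and 14.3 CPM in Sst+Nic, 40.96 and 56.6 CPM in Thy1, and 8.93, 22.7 and 10.3 CPM in Thy1+Nic. The highest values were those of the 2 Thy1 libraries, the lowest were those of Thy1+Nic replicates 1 and 3, and Thy1+Nic replicate 2 lay within the range of the Sst-neurons, 14.3 to 37.5 CPM.

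Efnb2, which encodes the ligand ephrin-B2 (Entrez 13642, chromosome 8, 8617235 to 8661242, minus strand), was the gene with the plainest difference between the cell types. It had 38.5, 112 and 96.9 CPM in Sst and 197 and 117 CPM in Sst+Nic. It had 309 and 295 CPM in Thy1 and 163, 215 and 247 CPM in Thy1+Nic. The Thy1 libraries stood above the others, the Sst libraries were the lowest, and both nicotine groups lay between them, so that in CPM the highest Sst+Nic library passed the lowest Thy1+Nic library. The means were 112 ± 56.7 CPM in Sst-neurons and 246 ± 59.5 CPM in Thy1-neurons (SD, n = 5 each). After division by the TMM factors the cell types no longer overlapped, at 32.8 to 146 CPM in Sst-neurons and 192 to 333 CPM in Thy1-neurons, and 9.92% of the 595 entries were lower in Sst-neurons in the same way. In pools of cells, fewer cells that express a gene and less RNA per cell cannot be told apart, here or for the other genes.

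Sema5b (Entrez 20357, chromosome 16, 35541154 to 35664261, plus strand) was near the limit of detection. Its counts were 22, 20 and 0 in Sst, 0 and 8 in Sst+Nic, 25 and 37 in Thy1, and 4, 12 and 0 in Thy1+Nic. Both Thy1 libraries, at 7.16 CPM (Wilson interval 4.85 to 10.6) and 10.2 CPM (7.37 to 14.0), were above every other library.

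Boc (Entrez 117606, chromosome 16, 44485045 to 44558870, minus strand) varied most among the Sst-neurons. It had 40.03, 78.3 and 138 CPM in Sst and 26.8 and 5.74 CPM in Sst+Nic, so that the nicotine libraries were both below all 3 saline libraries. In Thy1 it had 22.1 and 43.4 CPM and in Thy1+Nic 32.8, 24.1 and 29.5 CPM, a narrow band that held neither the highest nor the lowest of the Sst-neuron values.

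**Figure D1:**
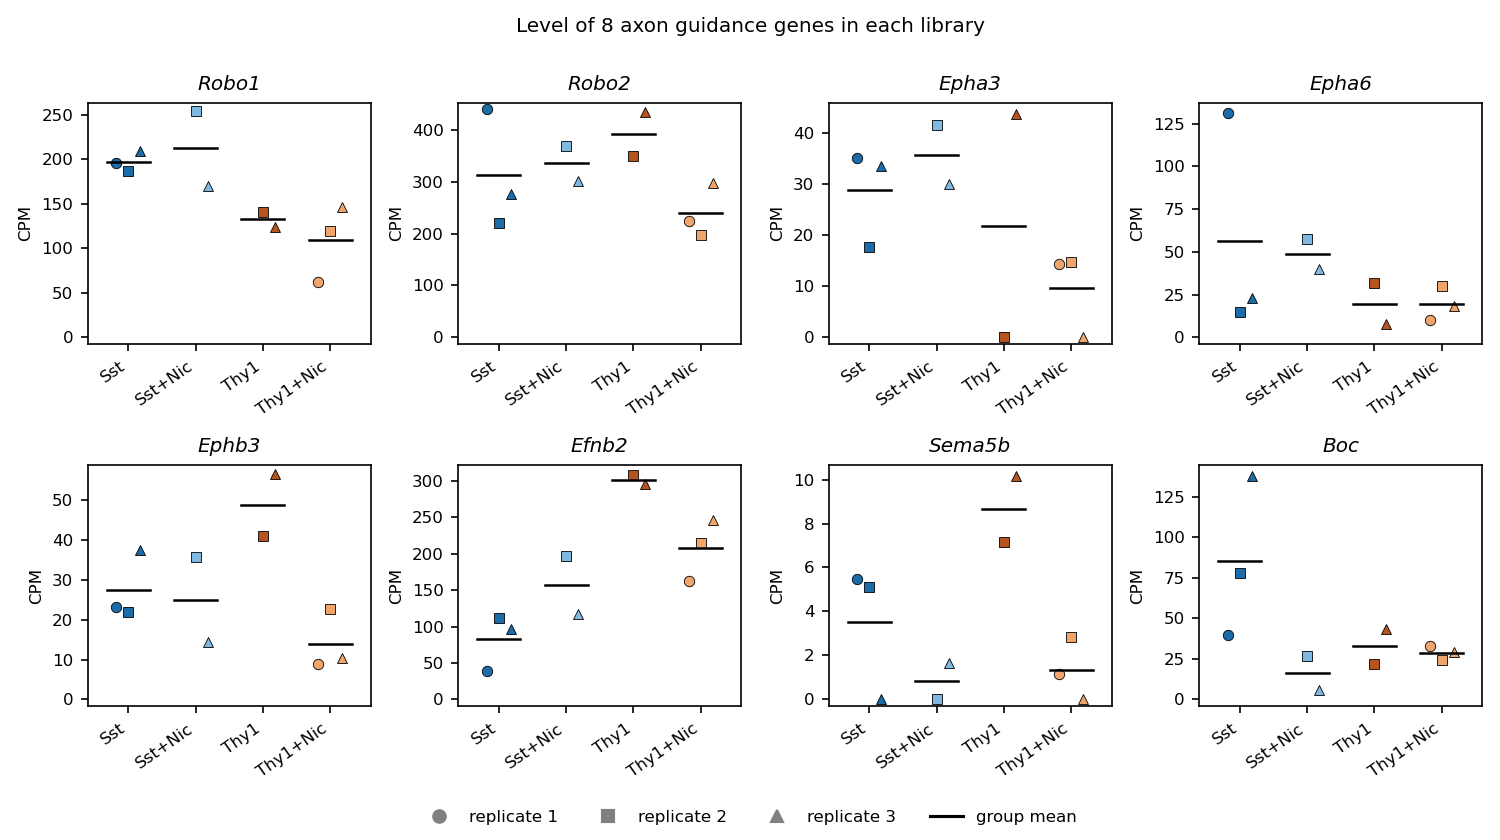
Level of each gene in CPM (vertical axis, linear, one scale per gene) in the 10 libraries by group, with replicate numbers as symbols and group means as bars. Efnb2 runs from 38.5 CPM in Sst replicate 1 to 309 CPM in Thy1 replicate 2, and Boc is lowest, at 5.74 CPM, in Sst+Nic replicate 3.

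To compare the genes with each other, levels were divided by the length of the gene's longest transcript with a RefSeq accession. In Sst-neurons the order of the mean level in CPM per kilobase was Robo2 (37.5), Robo1 (26.9), Efnb2 (23.4), Epha6 (13.6), Boc (13.0), Ephb3 (6.34), Epha3 (5.56) and Sema5b (0.561). Robo2 was above Robo1 in 5 of 5 libraries, but the ranges of both genes overlapped, as did those of every pair of neighbours in this order except Epha3 and Sema5b. In Thy1-neurons Efnb2 (51.3) came first, ahead of Robo2 (35.03), Robo1 (15.7), Boc (6.82), Ephb3 (6.66), Epha6 (4.99), Epha3 (2.57) and Sema5b (0.9796). Efnb2 was above Robo2 in 5 of 5 Thy1-neuron libraries, and the ranges of Robo2 and Robo1 did not overlap there. By group, the mean of Efnb2 was below those of Robo2, Robo1 and Boc in Sst (17.2, with Boc at 19.2), below that of Robo2 alone in Sst+Nic (32.7), and above those of the 7 other genes in Thy1 (63.0) and in Thy1+Nic (43.5).

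Together the 8 genes held between 1795 and 3699 counts per library, or 659 to 982 CPM in Sst-neurons and 517 to 1016 CPM in Thy1-neurons. The share of each gene in these counts does not depend on how the libraries are scaled. Efnb2 made up 4.24% to 20.1% of them in Sst-neurons and 29.1% to 34.3% in Thy1-neurons, with means of 14.1% ± 6.24 and 32.4% ± 2.19 (SD, n = 5 each). Robo1 made up 21.5% to 28.4% in Sst-neurons and 11.9% to 19.5% in Thy1-neurons. The shares of these 2 genes did not overlap between the cell types, and those of the other 6 did. Since the shares in a library have a fixed sum, a higher share of Efnb2 lowers those of the other genes. The separation of Robo1 in shares is therefore not independent of that of Efnb2. Set against the same sums, 13.6% of the 595 checked entries did not overlap between the cell types, 6.89% higher and 6.72% lower in Sst-neurons. Robo2 held a like share in both, at 39.6% ± 6.59 in Sst-neurons and 39.3% ± 4.77 in Thy1-neurons. Boc had its widest spread in Sst-neurons, from 0.843% in Sst+Nic replicate 3 to 16.9% in Sst replicate 3.

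**Figure D2:**
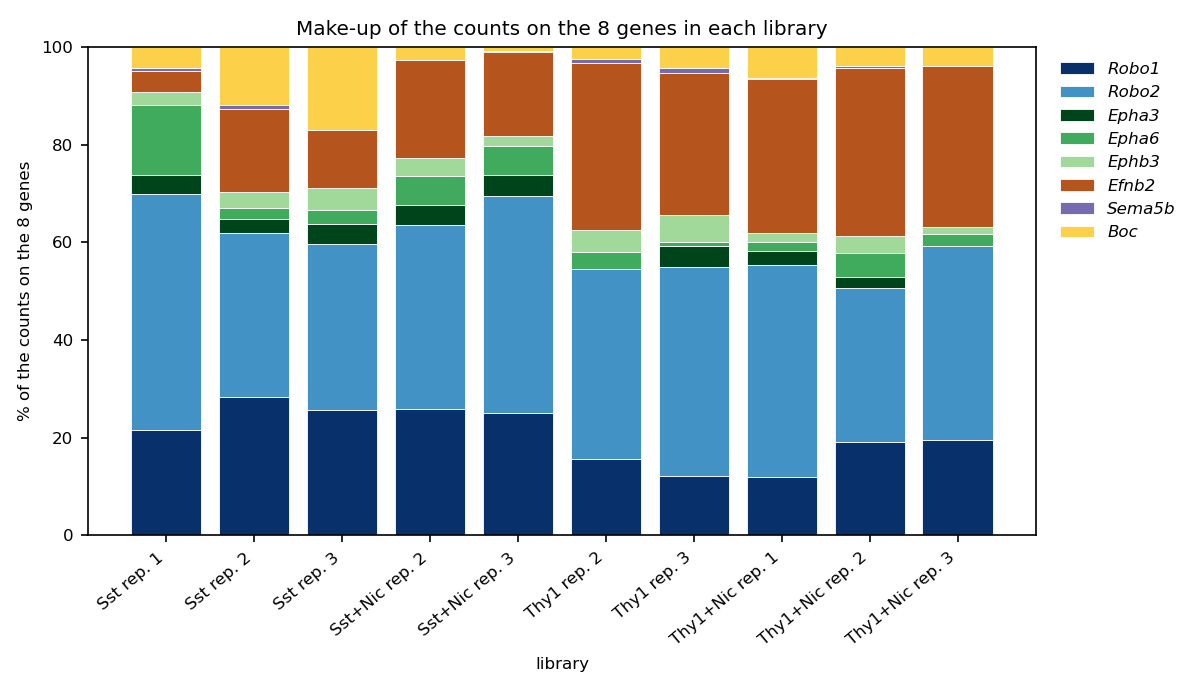
Make-up of the counts on the 8 genes in each library, as a percentage of their sum (vertical axis) by library (horizontal axis). The Efnb2 segment takes at most 20.1% in the 5 Sst-neuron libraries and at least 29.1% in the 5 Thy1-neuron libraries.

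The comparison of Sst with Thy1 asked how the cell types differ without nicotine. Efnb2 was the gene with the largest difference, with a log2 fold change of -1.99 (SE 0.51, 95% interval -3.20 to -0.78, Sst minus Thy1), and it did not pass the test at this sample size (edgeR quasi-likelihood test, unadjusted p = 0.00609, adjusted p = 0.125). Of 6350 entries tested, 1.72% were called DEGs, at an adjusted p under 0.05 and a fold change above 2, and of the 8 genes 0 were called, with 1 at an unadjusted p under 0.05 against 16.3% of all entries. Among the checked entries, to which the 8 genes belong, 4.78% were called and 23.7% had an unadjusted p under 0.05. The Efnb2 call turned on the processing. It was reached with DESeq2 (adjusted p = 0.00531), which called 8.87% of all entries and 14.9% of checked ones. In edgeR it was reached without a filter on low counts (adjusted p = 3.0e-05, 3.28% of entries called), when entries needed only 10 counts in any library (0.0222, 2.89%) and when a single fit held all 10 libraries (0.0419, 1.97%). Leaving out Thy1 replicate 3 gave -1.93, about the same fold change, with an adjusted p of 0.431 by edgeR. Robo1 (0.41), Epha6 (1.28), Boc (1.22) and Epha3 (0.12) had log2 fold changes above 0, and Robo2 (-0.54), Ephb3 (-1.01) and Sema5b (-1.47) below 0. Their adjusted p-values from edgeR ranged from 0.422 for Ephb3 to 0.996 for Epha3. The value of Epha6 rested on Sst replicate 1 and was -0.13 without it. Without Thy1 replicate 3 the values were -0.29 for Robo2, -0.66 for Ephb3, 0.60 for Epha6 and 1.89 for Boc, and none was called. The Epha3 value of 0.12 rested on that library, since the other Thy1 library had 0 counts, and without it the fitted 9.72 is no bound. In CPM and after TMM scaling, Robo1 was higher and Ephb3, Efnb2 and Sema5b were lower in all 3 Sst than in both Thy1 libraries, while 36.1% and 36.6% of checked entries did not overlap on these scales. The median log2 fold change was -0.21 over the 8 genes, 0.05 over all entries tested and -0.08 over checked entries.

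After nicotine, the comparison of Sst+Nic with Thy1+Nic gave 0 DEGs among the 7 genes tested, Sema5b having too few counts, where 0.507% of 6509 entries were called, 15 higher and 18 lower, or 17 and 7 with library totals in place of TMM factors, and 1.74% of checked entries were called. Efnb2 again had the smallest p, with a log2 fold change of -0.93 (SE 0.35, interval -1.75 to -0.12, unadjusted p = 0.0302, adjusted p = 0.259 by edgeR), and was 1 gene under an unadjusted 0.05 where 15.7% of all and 23.2% of checked entries were. With library totals its value was -0.41 (adjusted p = 0.684 by edgeR). With DESeq2, 0 of the genes, 7.8% of all entries and 14.5% of checked entries were called, and Efnb2 had an adjusted p of 0.0967. Boc had a log2 fold change of -1.41 (SE 0.78, adjusted p = 0.480 by edgeR), where without nicotine it had 1.22. With 1 library left out the value of Boc after nicotine ranged from -2.70 to -0.76. Epha3 (1.28), Epha6 (0.77), Robo1 (0.45) and Ephb3 (0.24) were above 0, Robo2 was at -0.01 (0.49 with library totals), and adjusted p-values of these 5 genes from edgeR ranged from 0.725 to 0.997. The value of Epha3 ranged from 1.27 to 3.43 under alternative settings and from 0.71 to 1.78 with 1 library left out. Robo1, Robo2, Epha3 and Epha6 were higher in both Sst+Nic than in all 3 Thy1+Nic libraries in CPM, where 38.8% of checked entries did not overlap and 25.9% were higher. Apod was also higher in Sst+Nic (259.6 and 402 CPM) than in Thy1+Nic (194, 88.6 and 0 CPM), and its part in these values was not tested. After TMM scaling the genes without overlap were Robo1 and Epha3, higher, and Efnb2 and Boc, lower, where 36.1% of entries did not overlap. The median was 0.24 over the 7 genes, 0.09 over all entries and -0.18 over checked entries.

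Across saline and nicotine, 5 libraries of each cell type could be compared in a fit with nicotine as a second term. This comparison was added after the data had been seen. Efnb2 was the single DEG among the 8 genes and lower in Sst-neurons, with a log2 fold change of -1.47 (SE 0.34, interval -2.21 to -0.72, adjusted p = 0.0262 by edgeR), where 4.62% of 8242 entries were called and 2.67% were called lower. Among checked entries 11.9% were called and 8.03% called lower, so that 1 of 8 genes is near the share of the entries they belong to. The same count with library totals was 264 higher and 148 lower entries, where TMM factors gave 161 and 220. At an unadjusted p under 0.05 stood 20.5% of all entries, 30.1% of checked entries and, of the 8 genes, Efnb2 alone. With library totals 3 of the 8 genes were under 0.05, Efnb2, Robo1 (0.77, unadjusted p = 0.0139, adjusted p = 0.121 by edgeR) and Epha6 (1.41, unadjusted p = 0.0481, adjusted p = 0.220), and 0 were called. DESeq2, which called 10.4% of all and 18.2% of checked entries, gave Efnb2 an adjusted p of 0.00141. With the library totals in place of TMM factors the value was -1.14 and the adjusted p 0.0942, and without Sst replicate 3 or Thy1+Nic replicate 2 the adjusted p was 0.0551 or 0.0599, so the call did not hold in these 3 fits. Without Thy1 replicate 3, the library with Sst transcripts, the adjusted p was 0.0416, and Robo2 (-0.11), Ephb3 (-0.12) and Boc (-0.40) were not called. Robo1 was at 0.42 (interval -0.12 to 0.97, adjusted p = 0.404 by edgeR) and Epha6 at 1.03 (interval -0.31 to 2.37, adjusted p = 0.414). The intervals of Robo2 (-0.75 to 0.20) and Boc (-1.58 to 1.40) both held 0, and their fitted values of -0.28 and -0.09 turned to 0.08 and 0.29 with library totals. Library totals in place of TMM factors moved the median of all entries by 0.17, 0.50 and 0.33 on the log2 scale in the comparisons without nicotine, with nicotine and over both treatments, and by 0.21 and -0.10 in the nicotine comparisons of Sst-neurons and Thy1-neurons. Values of single genes are to be read against that shift.

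**Figure D3:**
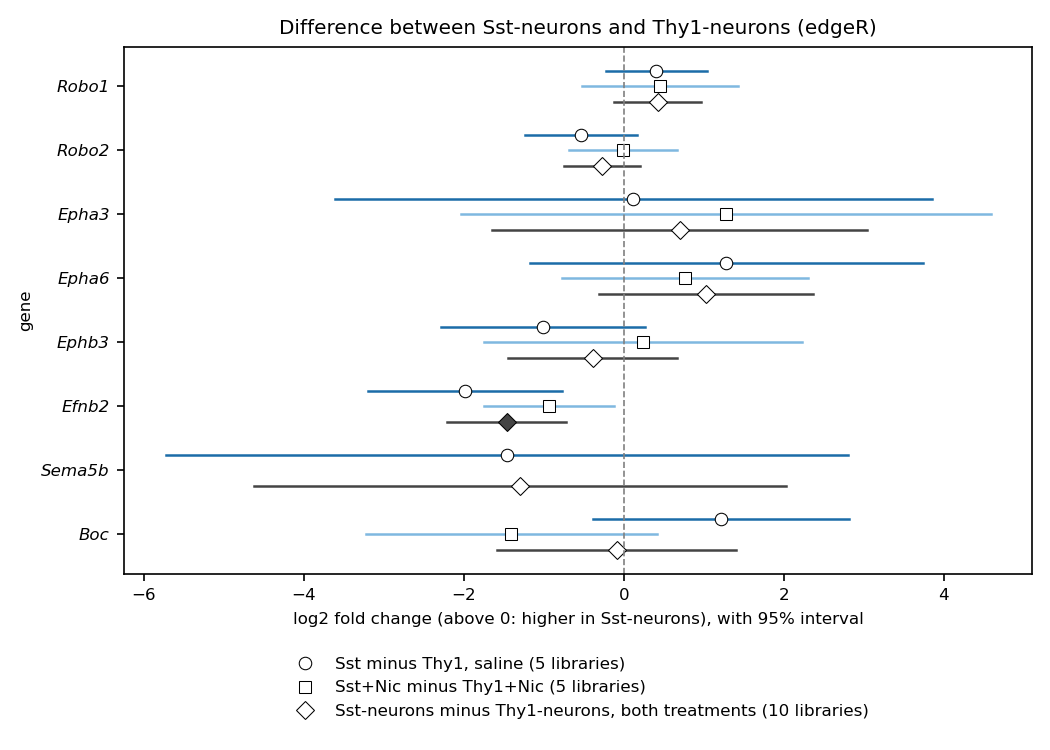
Log2 fold change of each gene between Sst-neurons and Thy1-neurons from edgeR (horizontal axis, above 0 when higher in Sst-neurons) with 95% intervals as lines, without nicotine, with nicotine and over both treatments. The filled symbol, for Efnb2 at -1.47, is the single value called, and Sema5b has no value with nicotine because it was not tested.

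The comparison of Sst+Nic with Sst asked what nicotine changed in the interneurons. Boc had the largest log2 fold change of the 8 genes, at -2.73 (SE 0.85, interval -4.73 to -0.73), but no entry passed the correction and Boc had an unadjusted p of 0.0143 and an adjusted p of 0.9998 by edgeR. Of 6689 entries, 0% were called by edgeR and 18 (0.269%) by DESeq2, of the 8 genes 0 were called by either, and 4.19% of all entries and 1 of the 8 genes had an unadjusted p under 0.05. Boc was called in 1 of 8 alternatives that used all libraries, the edgeR fit without a filter on low counts (adjusted p = 0.0413), and DESeq2 gave 0.113. With 1 library left out its log2 fold change ranged from -4.04, without Sst+Nic replicate 2, to -2.08, without Sst+Nic replicate 3. Without Sst replicate 3, the highest library, it was -2.22 with an unadjusted p of 0.0505 by edgeR, and 0 of the 8 genes were then under 0.05. The oligodendrocyte marker Apod was higher in both Sst+Nic libraries (259.6 and 402 CPM) than in the 3 Sst libraries (20.9, 103 and 193 CPM), and its part in these values was not tested. Boc was the gene whose libraries did not overlap on both scales, where 16.5% of checked entries in CPM and 16% after TMM scaling did not overlap and 5.55% and 9.24% were lower. Efnb2 was higher with nicotine without overlap in CPM alone, as were 10.9% of checked entries. Efnb2 had a log2 fold change of 0.62 (SE 0.55), Sema5b -2.14 (SE 2.57), Ephb3 -0.41, Epha6 -0.33, Epha3 0.11, and Robo1 -0.14 and Robo2 -0.09, both of which turned to 0.10 with library totals. Sema5b passed the filter on counts through the Sst libraries alone, so its value is no support for a difference. With 1 library left out the Sema5b value ranged from -6.79 to -1.21. A group left with Sst+Nic replicate 2, at 0 counts of Sema5b, gives no bound. The Epha6 value was 1.05 without Sst replicate 1. The intervals of Robo1 (-0.80 to 0.52) and Robo2 (-0.76 to 0.58) left out a fold change of 2 in either direction, and those of the other 6 genes did not. The median was -0.23 over the 8 genes, 0.05 over all entries and -0.09 over checked entries.

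In the pyramidal neurons, Thy1+Nic against Thy1, Ephb3 had a log2 fold change of -1.67 (SE 0.66, interval -3.19 to -0.16) with an unadjusted p of 0.0343 and an adjusted p of 0.9999 by edgeR. Of 6048 entries, 0% were called by edgeR and 14 (0.231%) by DESeq2, with 0 of the 8 genes in either, and 4.37% of all entries and 1 of the 8 genes had an unadjusted p under 0.05. Robo2 followed with -0.63 (SE 0.29, interval -1.31 to 0.05, unadjusted p = 0.0637 and adjusted p = 0.9999 by edgeR). Efnb2 had -0.44 (SE 0.29) and Sema5b -2.49 (SE 1.79), and these 4 genes were lower in all 3 Thy1+Nic than in both Thy1 libraries in CPM and after TMM scaling, where 19.3% and 19% of checked entries did not overlap and 12.4% and 9.41% were lower. Sema5b passed the filter on counts through the Thy1 libraries alone, so its value and its place among these genes are no support for a difference. Epha3 (-1.07), Robo1 (-0.19), Boc (-0.11) and Epha6 (0.16, or -0.01 with library totals) overlapped. In all, 7 of 8 values lay below 0, Sema5b among them, with a median of -0.53 over the 8 genes, -0.003 over all entries and 0.10 over checked entries. All of these rest on the same 2 Thy1 libraries, and without Thy1 replicate 3 the value of Ephb3 was -1.28, that of Robo2 -0.34, that of Epha6 -0.45 and that of Boc 0.60. Epha3 had no count in the remaining Thy1 library, so that its fitted 8.29 is no bound and its place among the 7 values below 0 rested on Thy1 replicate 3.

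**Figure D4:**
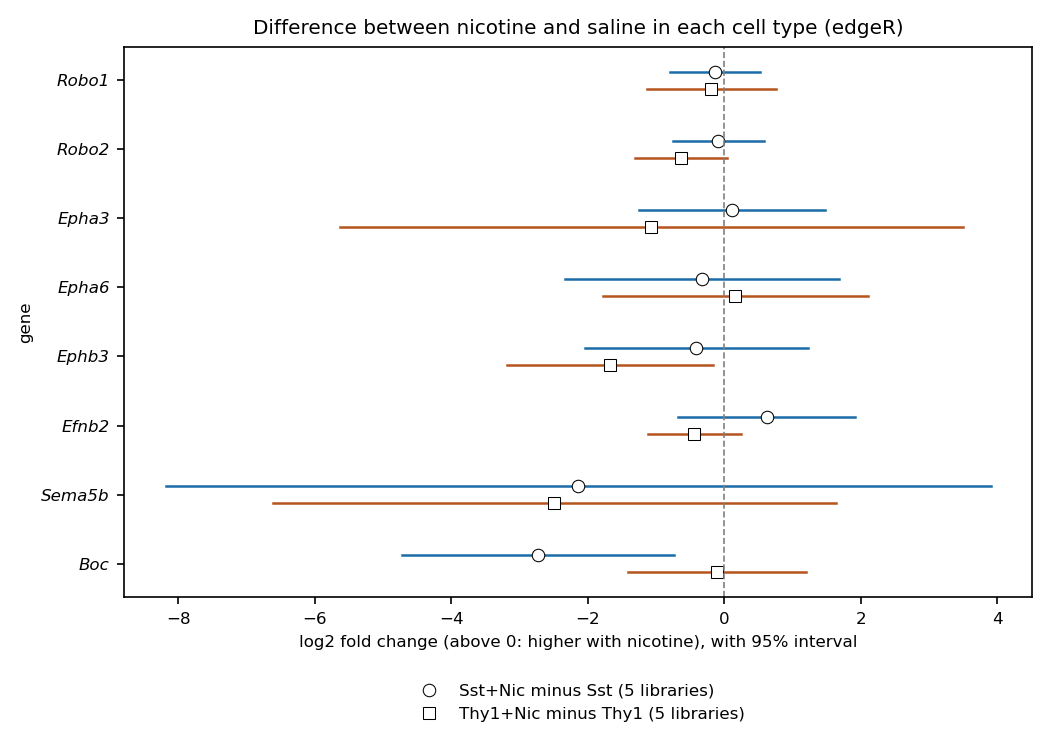
Log2 fold change of each gene between nicotine and saline from edgeR (horizontal axis, above 0 when higher with nicotine) with 95% intervals as lines, in Sst-neurons and in Thy1-neurons. Open symbols mark values that were not called, which holds for all 16, and the intervals of Boc in Sst-neurons and Ephb3 in Thy1-neurons are those that leave out 0.

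Whether nicotine acted differently on the cell types was tested with an interaction term over the 10 libraries. Boc had a log2 difference between the nicotine effects of -2.64 (SE 1.03, interval -4.87 to -0.40, Sst-neurons minus Thy1-neurons, unadjusted p = 0.0243 and adjusted p = 0.673 by edgeR). Of 8242 entries, 0% were called by edgeR and 25 (0.303%) by DESeq2, with 0 of the 8 genes in either, while 7.33% of all entries and 1 of the 8 genes had an unadjusted p under 0.05. Efnb2 had 1.04 (SE 0.63, interval -0.34 to 2.42), so that the narrower gap between the cell types after nicotine did not pass the test. Ephb3 had 1.24 (SE 0.97), Robo2 0.51 (SE 0.42) and Robo1 0.02 (SE 0.52), with adjusted p-values from edgeR between 0.824 and 0.9999. Without Thy1 replicate 3 the Robo2 difference was 0.25 and that of Boc was -3.32.

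The wider pathway was read through a list of 157 axon guidance genes, of which 155 had an entry and 16 lay in checked entries, the 8 genes above and 8 others. The 8 others are Rtn4r, the Nogo receptor that limits axon growth, the adhesion molecule Alcam, the growth cone protein Gap43, the kinases Pak2 and Gsk3b, the actin-severing protein Cfl1, the guanine nucleotide exchange factor Kalrn and the small GTPase Rhod. Rhod had counts in a single library and was not tested. Of the 7 tested without nicotine, all had a log2 fold change below 0 with TMM factors and all but Cfl1 (0.063) with library totals, 1, Rtn4r, was called a DEG and lower in Sst, and 4 had an unadjusted p under 0.05 by edgeR, beside 4.78% and 23.7% of checked entries. Rtn4r passed the filter on counts through the Thy1-neuron libraries alone, and its calls, by either tool and in each comparison of the cell types, are therefore no support for a difference. DESeq2 called 3, Rtn4r, Alcam (adjusted p = 5.85e-06) and Kalrn (0.00924), beside 14.9% of checked entries. The median of the 7 genes was -0.92 as fitted and with Rtn4r at its bound, beside -0.08 over checked entries. With nicotine 0 were called by edgeR and 3 (Rtn4r, Gap43 and Gsk3b) by DESeq2, beside 1.74% and 14.5% of checked entries, and 4 had an unadjusted p under 0.05 by edgeR, beside 23.2%. Over both treatments, Rtn4r left aside for the same reason, edgeR called 1 of the other 6, Gap43, lower in Sst-neurons, beside 11.9% of checked entries, and DESeq2 called Gap43 and Alcam, beside 18.2%. For nicotine against saline 0 were called by edgeR or DESeq2, of 6 tested in Sst-neurons, where Rtn4r had too few counts, and of 7 in Thy1-neurons, with 0 at an unadjusted p under 0.05 in Sst-neurons and 1, Gsk3b, in Thy1-neurons by edgeR, beside 4.19% and 4.37% of all entries.

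Rtn4r had 0 counts in the 3 Sst libraries, 0 and 17 counts in Sst+Nic, 72.5 and 99.7 CPM in Thy1, and 59.9, 48.4 and 28.9 CPM in Thy1+Nic. Against the limit that 0 counts allow in a library, 0.810 CPM, it was at least 89.5-fold lower in Sst than in the lowest Thy1 library, replicate 2. Thy1 replicate 3, in which Sst transcripts were found, had the highest Rtn4r level, and the bound is the same without it, while the call without nicotine, which is given no weight here, was lost (adjusted p = 0.0640 by edgeR). Gap43 was 2445 ± 247 CPM in Sst-neurons and 4736 ± 843 CPM in Thy1-neurons (SD, n = 5 each), without overlap, with a log2 fold change of -1.27 over both treatments (SE 0.20, adjusted p = 0.00246 by edgeR). With library totals in place of TMM factors the value of Gap43 over both treatments was -0.93, which did not pass the fold threshold. Over both treatments edgeR did not call Alcam (-1.005, adjusted p = 0.117) or Kalrn (-0.78, adjusted p = 0.0647). Alcam was called by DESeq2 (adjusted p = 0.0328) and by edgeR without Sst+Nic replicate 3 (-1.35, adjusted p = 0.0247). Pak2 (-0.005, or 0.35 with library totals), Cfl1 (-0.48) and Gsk3b (0.56) had adjusted p-values from 0.261 to 0.999 by edgeR. Gsk3b had 0.57 after nicotine in Sst-neurons and -0.95 in Thy1-neurons, with an interaction of 1.48 (SE 0.47, unadjusted p = 0.00860, adjusted p = 0.673 by edgeR). Without Sst+Nic replicate 2, the highest library, the value in Sst-neurons was 0.035 and the interaction 0.99.

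**Figure D5:**
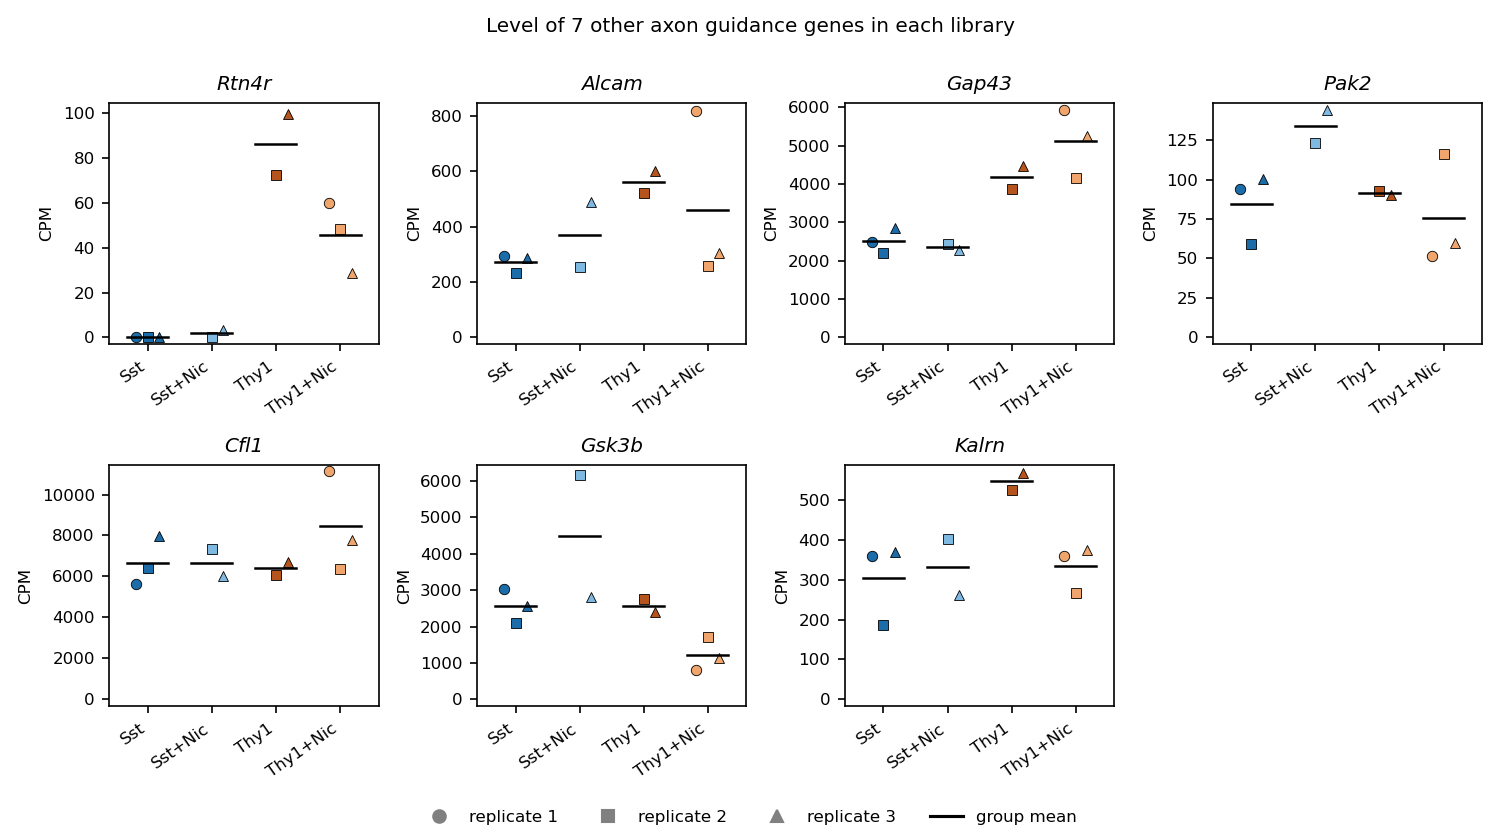
Level in CPM (vertical axis, linear, one scale per gene) of the other axon guidance genes in checked entries that were tested, in the 10 libraries by group, with replicate numbers as symbols and group means as bars. Rtn4r is at 0 counts in 4 of the 5 Sst-neuron libraries and between 28.9 and 99.7 CPM in the Thy1-neurons, and Gap43 separates the cell types.

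The genes whose pattern was most like that of each gene were sought among 391 checked entries with a mean of at least 20 CPM, by Pearson's r of log2(CPM + 1) over the 10 libraries. These values describe libraries that share totals and cell types, and no p is given. Robo1 was most like Eif4a2 (r = 0.923), a translation initiation factor, and Pcnp (0.899). Robo2 was most like Klhl24 (0.858) and Cep97 (0.836), so that the neighbouring roundabout genes had different closest genes. Epha3 was most like Apod (0.895) and Pnpla6 (0.786), Epha6 most like the acetyltransferase Kat5 (0.869) and Rogdi (0.848), and Ephb3 most like Ppp6r3 (0.885) and Tomm70a (0.769). Efnb2 was most like Snn (0.956), which had means of 85.3 CPM in Sst-neurons and 254 CPM in Thy1-neurons, and Rasa3 (0.831). Boc, with the lowest r to its closest gene, was most like Nudt16l1 (0.794) and 1300002E11Rik (0.759). Sema5b had a mean under 20 CPM and was not entered.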

How the data were processed

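The authors aligned the reads with TopHat to mouse genome mmu10.p2 (GRCm38), and the submitters' processing notes also name HTSeq without its role. The deposited values are raw fragment counts per gene entry, not normalized, with strand handling and annotation not given in the sources used here. The labels list 12 samples in 4 groups of 3, of which 10 were analysed. A CPM was computed as count over library total, and Wilson intervals cover counting error only.

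Entries were kept for naming where all genes compared with the study's group values in their chromosome stretch fell within 0.3 to 3 times of them. Coordinates came from RefSeq on GRCm38, and strand and transcript lengths from GENCODE. Differences were tested by edgeR 4.0.16 (quasi-likelihood, TMM, filterByExpr with a minimum count of 10, Benjamini-Hochberg adjustment over all entries tested) in R 4.3.3, with 5 libraries in each pairwise fit and 10 in the interaction and in the fit over both treatments. The study used EBSeq, which was not run here, and its thresholds were kept, at an adjusted p under 0.05 and a fold change over 2. Alternatives were DESeq2 1.42.0 and other scalings, filters, designs and subsets of libraries. The fits were tested on simulated data. The genes named are the 8 members, the other list genes in checked entries and, for each member with a mean of at least 20 CPM, the 2 entries most like it. A gene of the axon guidance list is not reported here and was left out of its counts. The members and lists were chosen with earlier results of these data known. Comparisons share libraries and are not independent. Python 3.11.15, numpy 2.4.6, pandas 2.3.3, scipy 1.17.1 and matplotlib 3.10.9 were used for the remaining steps.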

Additional observations from a re-analysis of the deposited data

How the results depend on the processing

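Among the log2 fold changes of the 8 genes over all libraries, 317 values under alternative settings kept their direction and their side of the threshold, 5 passed the threshold and 1 no longer did, and 13 turned. The causes were not tested. With library totals in place of TMM factors, the nicotine effect in Sst-neurons was 0.10 for Robo1 and 0.10 for Robo2, that of Epha6 in Thy1-neurons was -0.012, and the cell type difference was 0.49 for Robo2 with nicotine and 0.080 for Robo2 and 0.29 for Boc over both treatments. In checked entries alone Robo2 was 0.21 with nicotine and Boc 0.076 over both treatments.

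Same-numbered libraries did not deviate together (correlations from -0.0926 to 0.0240 in 8 pairs, and from -0.0774 to 0.0926 in 16 pairs of different number). In a group of 2 libraries the deviations from the mean mirror each other, and every pair of groups held such a group. These values therefore cannot exclude a pairing by number. With the replicate block, nicotine effects turned to 0.12 for Robo2 and 1.04 for Epha6 in Sst-neurons and 0.083 for Robo1 in Thy1-neurons, the interactions of Robo1 and Epha6 turned to -0.35 and 0.17, and the entries called were 59 without nicotine and 9 with nicotine.

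Counts of entries called moved by over 1.5 times as follows. For nicotine in Sst-neurons (0 by edgeR) DESeq2 called 18 and edgeR without a filter 8, including 1 of the 8 genes, Boc. For nicotine in Thy1-neurons (0) DESeq2 called 14, no filter gave 13 and a filter of 10 counts in a library 7. Between cell types without nicotine (109) these 3 settings gave 563, 454 and 266, with 1 of the 8 genes, Efnb2, in each and in the single fit of all libraries. A fit of checked entries alone called 33, where the main fit called 24 of the checked entries. With nicotine (33) the same 3 settings gave 508, 356 and 275, and the single fit of all libraries gave 105. Checked entries alone gave 17, where the main fit called 9 of the checked entries. For the interaction (0) the same 3 settings gave 25, 36 and 27. Over both treatments (381) DESeq2 called 861, and 0 of the 8 genes were called with library totals. Checked entries alone gave 63 there, about the same as the 65 checked entries called in the main fit.

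Leaving out 1 library at a time gave 33 to 55 called entries without nicotine, 0 to 56 with nicotine (0 without Thy1+Nic replicate 3, 56 without Sst+Nic replicate 3) and 0 to 5 for the interaction, and 0 to 1 of the 8 genes over both treatments, where Efnb2 ranged from -1.67 to -1.25. A group left with 1 library is assumed to vary like the others. Log2 fold changes that turned ranged, for nicotine in Sst-neurons, from -0.22 to 0.13 for Robo2, -0.092 to 0.27 for Epha3 and -0.75 to 1.05 for Epha6. For nicotine in Thy1-neurons they ranged from -0.36 to 0.082 for Robo1, -2.07 to 8.29 for Epha3, -0.45 to 1.39 for Epha6 and -0.57 to 0.60 for Boc. Between cell types they ranged from -0.95 to 9.72 for Epha3 and -0.13 to 2.43 for Epha6 without nicotine, from -0.060 to 0.10 for Robo2 and -0.38 to 0.91 for Ephb3 with nicotine, and from -0.69 to 0.53 for Boc over both treatments. For the interaction they ranged from -0.24 to 0.21 for Robo1, -8.41 to 2.19 for Epha3, -1.71 to 0.86 for Epha6 and -4.11 to 1.63 for Sema5b. The extremes of Epha3 come from a group left with a library at 0 counts and are no bounds.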
